A study of Mus musculus with 6 samples.

Results

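The carbonic anhydrases are a family of enzymes, and 10 of its genes (Car2, Car3, Car4, Car5b, Car6, Car8, Car9, Car12, Car13 and Car14) were followed on gene arrays of primary mouse osteoblasts, among 20659 genes that the arrays named. The members were taken by name through the RefSeq accession of each probe, which gave 12 probes of 39429. The family was chosen by the log2 signals of these same arrays, on which Car6 had the greatest loss with cabozantinib. The cabozantinib comparison is therefore described without a test for every carbonic anhydrase, and Car6 is tested in no comparison. The 6 other family genes on the array (Car1, Car5a, Car7, Car10, Car11 and Car15) are given beside the members.

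The cells were osteoblasts from the calvaria of CD1 mice, 2 to 5 days old. Undifferentiated osteoblasts were grown to confluence in medium with serum, differentiated osteoblasts were then kept for 30 days in medium with ascorbic acid and β-glycerol phosphate, and treated osteoblasts were kept for the same 30 days in that medium with 100 nM cabozantinib (XL184), a kinase inhibitor of VEGFR2 and MET. Each condition had 2 arrays, and the labels give no gene deletion or transgene in any group. Nothing in the labels says whether the 2 arrays of a condition came from separate preparations of cells, so the p-values measure only the spread between these arrays, which may be technical.

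Carbonic anhydrases turn carbon dioxide and water into bicarbonate and a proton, and back, at a zinc ion held in the active site. The members differ in where they work: Car2, Car3 and Car13 lie in the cytosol, Car5b in the mitochondria, Car4, Car9, Car12 and Car14 on the cell surface, and Car6 is secreted, best known from saliva. Car8, Car10 and Car11 have lost the catalytic activity. In bone, Car2 supplies the protons with which osteoclasts dissolve mineral, and Car9 and Car12 are known as genes induced by low oxygen.

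Each value below is a log2 signal relative to the 75th percentile of its array, so that 0 is the level of that percentile, and levels of different genes are not compared because each probe has its own brightness. Between 58.8% and 72.9% of the 43020 spots of an array were well above background, and the lowest shares, 58.8% and 58.9%, were those of the cabozantinib arrays. The treated osteoblasts were hybridized on a slide of their own, scanned separately from the slide that held the other 4 arrays, so that slide and drug cannot be told apart. Genes with dim probes were lower on the cabozantinib arrays as a class. Of 8573 genes with a mean level below -3, 66.7% were lower on both cabozantinib arrays than on both differentiated arrays, with a median difference of -1.08, and of 8758 genes with a mean level of 0 or above 24.1% were, with a median of -0.10. The median of all genes moved by -0.29 in that comparison (-0.08 after quantile normalization) and by 0.11 between undifferentiated and differentiated osteoblasts (0.10 after quantile normalization). In cultures of mixed cells, fewer cells of a type and less RNA per cell cannot be told apart.

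The label of the cells was checked with markers. Osteocalcin (Bglap2) rose from -0.08 and -0.32 in undifferentiated to 5.13 and 4.59 in differentiated osteoblasts. With limma at an adjusted p under 0.05, 5 of 12 tested osteoblast markers rose and 1 fell, beside 5.27% of all genes that rose and 4.45% that fell. The marker that fell was Spp1, with a log2 fold change of -3.67 (limma adjusted p of 0.0319). Runx2 and Sp7 had log2 fold changes of -1.92 and -1.85 that were not called (limma adjusted p of 0.0776 and 0.0698). Neither was well above background on all 6 arrays. Alpl, Col1a1 and Col1a2 were not called either, with log2 fold changes between 0.24 and 0.50. Markers of other cells were present as well: 5 of 10 tested macrophage markers, 6 of 8 adipocyte markers and 3 of 12 osteoclast markers rose with differentiation, and none of these fell. Of 10 cartilage markers 4 rose, and of 7 tested endothelial markers 1 rose and 1 fell. The summed level of the macrophage markers, in multiples of the 75th percentile, was 25.1 to 44.2 in undifferentiated, 350.4 to 488.9 in differentiated and 304.5 to 378.6 in cabozantinib-treated osteoblasts. That of the adipocyte markers was 5.12 to 5.75, 71.2 to 96.4 and 58.3 to 59.6. The part of these cells in the values of the carbonic anhydrases was not tested.

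All 10 members had a probe on the array, and the probe passed the background call of the scanner on 2 arrays or more for 9 of them and on all 6 arrays for 7. Car5b did not pass and was not tested.

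**Figure D1:**
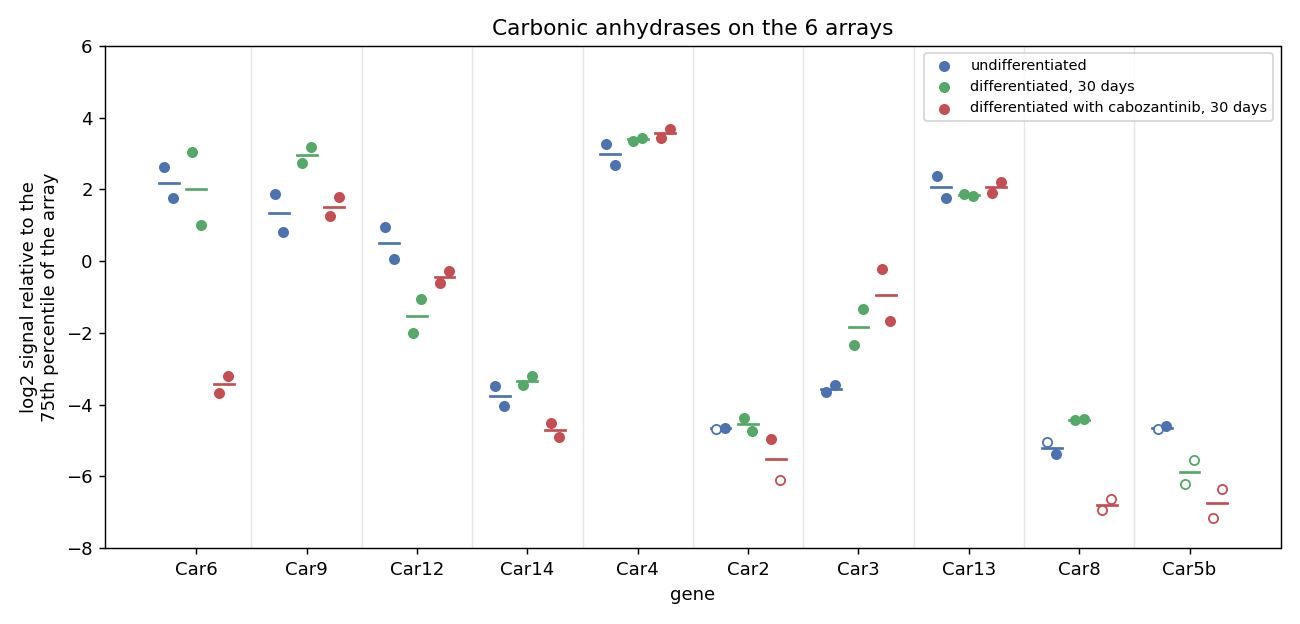
Log2 signal relative to the 75th percentile of the array (vertical axis) of the brightest probe of each of the 10 carbonic anhydrases, with 1 point per array, a bar at the mean of the 2 arrays of a condition, and open points where the probe was not well above background. Car6 was at 0.996 to 3.05 on the 4 arrays without cabozantinib and at -3.68 and -3.19 with it, Car9 was highest and Car12 lowest in differentiated osteoblasts, and Car13 had the smallest range over the 6 arrays.

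Car6, the secreted carbonic anhydrase, was at 2.62 and 1.76 in undifferentiated, 3.05 and 0.996 in differentiated and -3.68 and -3.19 in cabozantinib-treated osteoblasts. On the linear scale of the scanner, the signals were 3842, 6002, 9081 and 1295 units without the drug, in the same order, and 99.6 and 105 units with it. Both cabozantinib arrays were far below the other 4, and the undifferentiated arrays lay between the 2 differentiated ones. The probe stayed well above background on all 6 arrays, so the low values are measured levels and not bounds. The mean with cabozantinib was lower than in differentiated osteoblasts by a log2 difference of -5.46, which is 44.0-fold, and lower than in undifferentiated osteoblasts by -5.63, or 49.4-fold. Differentiated against undifferentiated osteoblasts, the difference was -0.17, small beside the gap of 2.06 between the 2 differentiated arrays.

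Among 23054 tested genes, counted with the transcripts that RefSeq did not name, Car6 had the lowest difference between cabozantinib-treated and differentiated osteoblasts. The gene just above it was Iapp, which encodes the peptide hormone amylin, at -5.14, followed by a transcript without a gene name at -4.41. The 3312 genes with a mean level within 1 log2 unit of that of Car6 had a median difference of -0.035. With 1 array left out at a time the difference of Car6 ranged from -6.43 to -4.49, and it was -5.07 after quantile normalization and -4.82 after a normexp background correction.

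**Figure D2:**
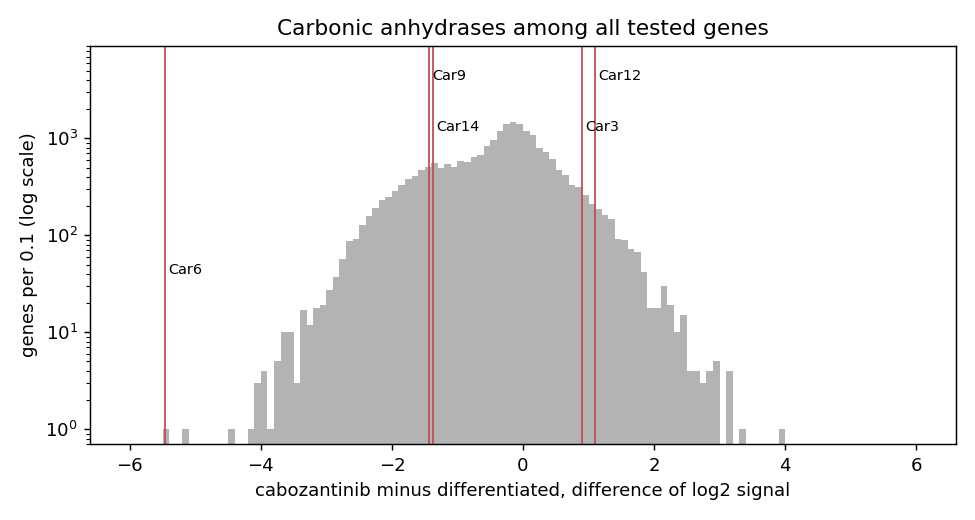
Number of genes (vertical axis, log scale) by difference of mean log2 signal between cabozantinib-treated and differentiated osteoblasts (horizontal axis, bins of 0.1) for the 23054 genes, with red lines at 5 carbonic anhydrases. Car6 lay at the lower end at -5.46, Car9 at -1.44, Car14 at -1.38, Car3 at 0.90 and Car12 at 1.095.

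Genes whose signal followed that of Car6 were sought among 10419 genes with a standard deviation of at least 0.5 over the 6 arrays, which share depth and slide with Car6. The 5 most alike were Olfr1170 (Pearson r of 0.9969 over 6 arrays), Rps15a-ps6 (0.9954), Cyp2b13 (0.9942), Trib3 (0.9899) and Soat2 (0.9891). Trib3, a pseudokinase induced in the stress response of the endoplasmic reticulum, was at 5.54 and 4.38 in undifferentiated, 5.57 and 4.71 in differentiated and 0.75 and 1.36 in cabozantinib-treated osteoblasts. Its difference with cabozantinib was -4.08, and those of the other 4 genes were between -2.50 and -0.995. Soat2, which esterifies cholesterol, had the largest of these 4, from -0.76 and -1.66 in differentiated to -3.88 and -3.55 in treated osteoblasts. On the treated arrays Olfr1170 and Cyp2b13 were at -4.74 to -4.36, and Rps15a-ps6 was at -2.59 and -2.54. All 5 genes were picked by their correlation with Car6, so a lower level with cabozantinib follows from the choice.

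Because Car6 is a product of salivary glands, a list of 16 secretory and salivary gland genes was read beside it, of which 10 could be tested. With differentiation 1 gene of the list rose and 2 fell, beside 9.72% of all genes called, 5.27% higher and 4.45% lower, by limma at an adjusted p under 0.05. Amy1, the salivary amylase, rose by 3.06 on the log2 scale (limma adjusted p of 0.00529), and the water channel Aqp5 and the keratin Krt18 had log2 fold changes of -5.98 and -4.67. Both were well above background on 1 of the 2 differentiated arrays, and Amy1 on 1 of the 2 undifferentiated ones. With cabozantinib against differentiation Aqp5 rose by 2.41 (limma adjusted p of 0.0476) and none fell, beside 0.121% of all genes called higher and 2.55% lower. The call of Aqp5 was lost after quantile normalization and with the authors' values. The median of the list in that comparison was -1.21, against -0.29 for all genes and -1.08 for genes with a mean level below -3. All but 1 of its 10 tested genes were below background on at least 1 array.

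The upstream sequences of 3 members that were well above background on all 6 arrays are shown. Car6 had the greatest difference with cabozantinib. Car9 and Car12 had mean differences over 2-fold in both comparisons, of opposite sign. Of the members well above background on all 6 arrays, Car13 and Car14 also had opposite signs, but their differences with differentiation were under 2-fold. RefSeq windows of the mouse build GRCm38.p6 hold 250 bases before and 50 bases after each start of transcription, and the 250 bases before the start are printed, 5′ to 3′ on the strand of the gene. Car6 lies on chromosome 4 on the minus strand (chr4:150201136-150201385), Car9 on chromosome 4 on the plus strand (chr4:43506776-43507025) and Car12 on chromosome 9 on the plus strand (chr9:66713436-66713685). Capitals mark, on either strand, the hypoxia response core ACGTG, its variant with the letters GCGTG, and the RUNX core with the letters TGTGGT.
Car6: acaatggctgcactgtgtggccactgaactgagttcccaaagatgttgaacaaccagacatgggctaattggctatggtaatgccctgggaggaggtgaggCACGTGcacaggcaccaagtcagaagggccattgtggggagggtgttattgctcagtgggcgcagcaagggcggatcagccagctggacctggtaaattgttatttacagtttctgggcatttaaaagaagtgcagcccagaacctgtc
Car9: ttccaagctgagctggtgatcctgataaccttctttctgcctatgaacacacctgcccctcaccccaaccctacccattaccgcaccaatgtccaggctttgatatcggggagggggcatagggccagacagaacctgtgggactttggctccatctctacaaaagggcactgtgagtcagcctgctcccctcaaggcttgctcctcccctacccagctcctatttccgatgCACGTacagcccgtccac
Car12: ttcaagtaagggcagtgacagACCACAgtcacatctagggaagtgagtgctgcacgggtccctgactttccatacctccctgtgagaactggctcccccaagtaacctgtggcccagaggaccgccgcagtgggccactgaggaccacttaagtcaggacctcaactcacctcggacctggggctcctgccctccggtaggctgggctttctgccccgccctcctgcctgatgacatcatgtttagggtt

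Car6 held the E-box CACGTG at positions -149 to -144 from the start, which contains the hypoxia core on both strands. Car9 held the hypoxia core on the opposite strand at positions -18 to -14, and Car12 held the RUNX core on the opposite strand at positions -229 to -224. Of all 32851 windows of 300 bases, 19.6% held the hypoxia core on either strand, 32.4% its variant, 16.8% the RUNX core, 7.2% the E-box, 37.4% the CCAAT box and 13.6% the TATA box with the letters TATAAA. Among the 6 members with a window, 4 held the hypoxia core (Car6, Car9, Car14 and, past the start, Car4). Its variant was held by 2 (Car5b and, past the start, Car6) and the RUNX core by 1 (Car12). The CCAAT box was held by 3 (Car5b, Car6 and Car9), the E-box by 1 (Car6) and the TATA box by 1 (Car4, past the start). These matches describe the letters alone.

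Car9, a surface enzyme known for its induction by low oxygen, was at 1.88 and 0.82 in undifferentiated, 2.73 and 3.18 in differentiated and 1.25 and 1.78 in cabozantinib-treated osteoblasts. Both differentiated arrays were above the other 4, and the treated arrays lay within the range of the undifferentiated ones. The mean was 3.03-fold higher in differentiated than in undifferentiated osteoblasts, a log2 fold change of 1.60 ± 0.56 (SE, 2 arrays per condition), which did not pass the threshold (limma adjusted p of 0.119). Over 15 alternative fits this limma adjusted p ranged from 0.00615 to 0.738, and 2 of them called the gene. With cabozantinib the level was 2.71-fold lower than in differentiated osteoblasts, a difference of -1.44, and 0.98% of the 3468 genes within 1 log2 unit of its mean level had a lower difference.

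Car12, the other surface enzyme known for induction by low oxygen, had its lowest level in differentiated osteoblasts. It was at 0.95 and 0.06 in undifferentiated, -2.01 and -1.04 in differentiated and -0.60 and -0.26 in cabozantinib-treated osteoblasts, so that the 3 conditions did not overlap and the treated arrays lay between the other groups. The difference between differentiated and undifferentiated osteoblasts was -2.04 ± 0.57 (SE), or 4.10-fold, with a 95% interval from -3.31 to -0.76. It did not pass the threshold (limma adjusted p of 0.0520, and 0.0308 without the replicate block), and 5 of 15 alternative fits called it, with limma adjusted p from 0.00254 to 0.566. With cabozantinib the mean was 1.095 above that of differentiated osteoblasts, a 2.14-fold difference (0.47 without differentiated replicate 1 and 1.72 without differentiated replicate 2), and 93.9% of the 3352 genes of like mean level had a lower difference.

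Car14, a further surface enzyme, was at -3.48 and -4.05 in undifferentiated, -3.46 and -3.19 in differentiated and -4.50 and -4.90 in cabozantinib-treated osteoblasts. The treated arrays were the lowest, by a difference of -1.38 from the differentiated ones (-0.71 after quantile normalization and -0.70 with the authors' values), while 29.6% of the 5417 genes of like mean level had a lower difference. With differentiation the log2 fold change was 0.44 ± 0.50 (SE; limma adjusted p of 0.783).

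Car4, held to the surface by a lipid anchor, was at 3.28 and 2.68 in undifferentiated, 3.35 and 3.45 in differentiated and 3.44 and 3.70 in cabozantinib-treated osteoblasts. The treated and differentiated arrays overlapped, and the log2 fold change with differentiation was 0.42 ± 0.50 (SE; limma adjusted p of 0.796; 95% interval from -0.70 to 1.54). Its other probe was not well above background on any array. Car13, a cytosolic enzyme, was at 2.37 and 1.77, 1.89 and 1.82, and 1.91 and 2.22 in the same order of conditions. Its log2 fold change with differentiation was -0.22 ± 0.50 (SE; limma adjusted p of 0.932; 95% interval from -1.34 to 0.91), and the difference with cabozantinib was 0.21, with the treated arrays just above the differentiated ones. These intervals leave room for changes of 2-fold in Car4 and Car13.

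Car13, Car1, Car3 and Car2 follow each other in this order on chromosome 3 in RefSeq (GRCm38.p6), with 0 other protein-coding genes between neighbours, and their values did not follow one pattern. Car3, a cytosolic enzyme of low activity that is abundant in fat and muscle, was at -3.66 and -3.44 in undifferentiated, -2.35 and -1.34 in differentiated and -0.23 and -1.67 in cabozantinib-treated osteoblasts. All 4 arrays from differentiation medium were above the undifferentiated ones, and the treated arrays overlapped the differentiated ones. With differentiation Car3 had a log2 fold change of 1.71 ± 0.63 (SE), or 3.27-fold, that did not pass the threshold (limma adjusted p of 0.138), and none of 15 alternative fits called it. The difference of 0.90 with cabozantinib rested on treated replicate 1, since it was -0.13 without that array.

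The genes most like Car3 over the 6 arrays were Sla (r of 0.9722), Lbp (0.971), Hk3 (0.9557), Fcna (0.9463) and Themis2 (0.9385). These genes were picked by this correlation, so an order of arrays like that of Car3 follows from the choice. Sla, Hk3, Fcna and Themis2 are known from blood cells of the immune system. Lbp, which encodes the lipopolysaccharide-binding protein, was at -3.71 and -3.11 in undifferentiated, -2.39 and -1.75 in differentiated and -0.65 and -1.33 in treated osteoblasts. The summed levels of the macrophage and adipocyte markers given above were also higher in both groups from differentiation medium. The median log2 fold changes of these markers over differentiation were 2.23 and 4.22, with 9 of 10 and 7 of 8 higher. Lyz2 and Plin1 went the other way, at -1.28 and -1.52, neither called. Plin1 and Cidec were lower on both treated arrays than on both undifferentiated ones. With cabozantinib against differentiation the medians of the macrophage and adipocyte markers were -0.07 and -1.21. Of 11 tested markers of skeletal muscle, the other tissue rich in Car3, 2 rose and 1 fell with differentiation, beside 5.27% and 4.45% of all genes. Their summed level was 4.56 to 4.92 in undifferentiated, 1.92 to 3.66 in differentiated and 6.51 to 6.996 in treated osteoblasts. With differentiation this sum was lower, while Car3 was higher. The marker that fell was Acta1 (log2 fold change of -2.58, limma adjusted p of 0.00953). It was the highest of the 11 in undifferentiated osteoblasts, at 2.09 and 2.04, and made up most of the sum there. The median log2 fold change of the 11 with differentiation was 0.34, and 6 of them were higher. With cabozantinib against differentiation the median of the 11 muscle markers was -0.11, against -0.29 for all genes. On both treated arrays 5 of them were lower than on both differentiated arrays and 3 were higher, beside 44.2% and 13.4% of all genes. Most of the 11 had a mean level below -3, a class in which 66.7% of genes were lower and 9.2% higher, with a median of -1.08. What part these cells had in the level of Car3 was not tested.

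Car2, the cytosolic enzyme of osteoclasts and red cells, was dim, at -4.66 and -4.66 in undifferentiated, -4.36 and -4.72 in differentiated and -4.95 and -6.09 in cabozantinib-treated osteoblasts. It was well above background on 4 of the 6 arrays, with undifferentiated replicate 1 and treated replicate 2 below. With differentiation its log2 fold change was 0.12 ± 0.52 (SE; limma adjusted p of 0.966). The treated arrays were the lowest, with a difference of -0.98 (-0.15 after quantile normalization and -0.14 with the authors' values), and 55.6% of the 5393 genes of like mean level had a lower difference. The osteoclast marker Acp5, a phosphatase, rose with differentiation from 2.44 and 1.39 to 4.98 and 5.53, while Calcr, the calcitonin receptor of osteoclasts, was not well above background on any array. Of 5 tested red cell markers, none was called by limma with differentiation (0 at an unadjusted p under 0.05), and Hbb-b2, Epb42 and Klf1 were not well above background on any array.

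Car8, without catalytic activity, was at -5.05 and -5.39 in undifferentiated, -4.44 and -4.39 in differentiated and -6.93 and -6.64 in cabozantinib-treated osteoblasts. Both treated arrays were not well above background, so with this probe and the main normalization the level in differentiated osteoblasts was at least 2.01-fold higher. No bound was computed with other processing, and the other probe had a difference of 0.74, in the other direction. The measured difference of the brighter probe was -1.43 after quantile normalization and with the authors' values. Of the 4493 genes of like mean level, 10.6% had a lower difference than the brighter probe of Car8, and their median was -1.30. With normexp the measured difference was -0.79, and with the mean of both probes -0.81, against -2.37 for the brighter probe. Its other probe differed: it was well above background on differentiated replicate 2 and treated replicate 2 alone, and at -2.11 on the latter it was far above its values of -7.66 to -5.40 on the other 5 arrays. With differentiation the brighter probe had a log2 fold change of 0.80 ± 0.49 (SE; limma adjusted p of 0.437). Car5b, the mitochondrial enzyme, was well above background on undifferentiated replicate 2 alone, where it was at -4.59. Its other values, all not well above background, were -4.68 in undifferentiated, -6.20 and -5.53 in differentiated and -7.15 and -6.34 in treated osteoblasts, and no fold is given.

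Differentiated against undifferentiated osteoblasts, none of the 8 tested members other than Car6 was called, beside 9.72% of all genes, and 3 of the 8 (Car3, Car9 and Car12) had an unadjusted p under 0.05, beside 20.2% of all genes. The arrays of the conditions did not overlap for 6 of the 9 members with Car6, beside 45.3% of all genes. With Car6, the median log2 fold change of the 9 members was 0.42, against 0.11 for all genes. In the cabozantinib comparison, 4 of the 9 (Car6, Car8, Car9 and Car14) were over 2-fold lower without overlap of the arrays, beside 24.8% of all genes. Car12 was over 2-fold higher, beside 4.39%. The share over 2-fold lower was 51.5% of genes with a mean level below -3, where Car8 and Car14 lie. It was 2.7% of genes at 0 or above, where Car6 and Car9 lie. From -3 to 0, where Car12 lies, 7.2% were over 2-fold higher. Members over 2-fold lower numbered 3 after quantile normalization and with the authors' values (without Car14), and 3 with the mean of the probes of a gene (without Car8). They numbered 2 with normexp (Car6 and Car9), where Car12 was not over 2-fold higher either. The family was chosen in that comparison, so these counts are given as a description. The differentiated arrays enter both comparisons, and a value that is high in them alone raises the first difference and lowers the second.

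**Figure D3:**
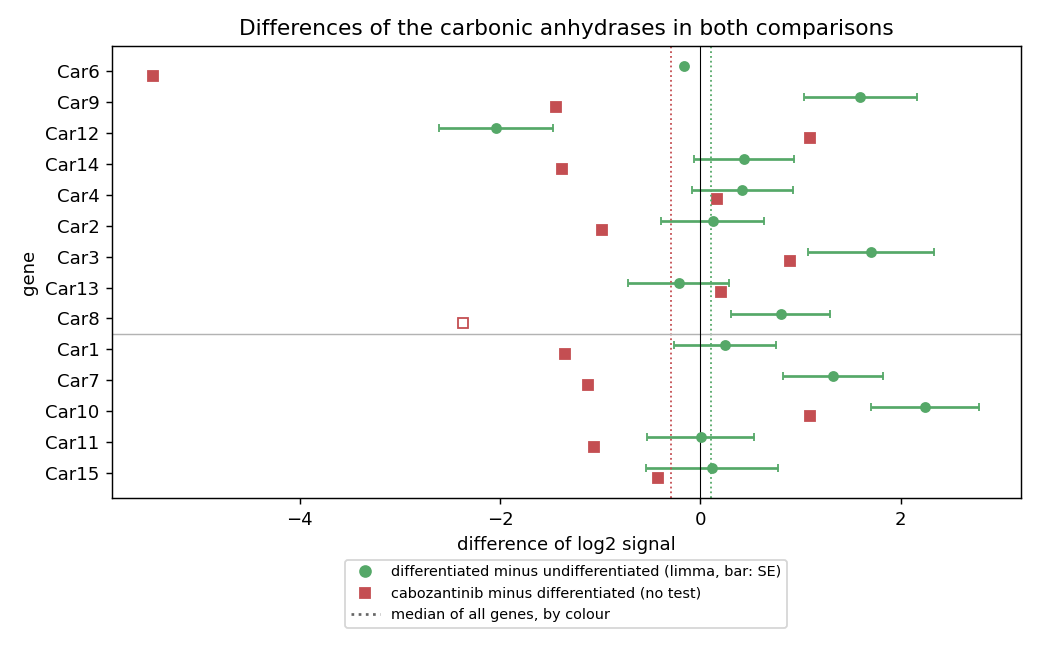
Difference of mean log2 signal (horizontal axis) of 9 members and, below the grey line, 5 other carbonic anhydrases, for differentiated minus undifferentiated osteoblasts (green circles, with the standard error from limma as a bar, none for Car6) and cabozantinib-treated minus differentiated osteoblasts (red squares, not tested, open for Car8, whose treated arrays were not well above background), with dotted lines at the medians of all genes. Car9 at 1.60 and -1.44, Car7 at 1.33 and -1.12 and Car12 at -2.04 and 1.095 changed sign between the comparisons. All other genes shown did too except Car3, Car4 and Car10, above 0 in both, and Car6, below 0 in both.

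Of the 6 other carbonic anhydrases, Car10, a member without catalytic activity known from the brain, rose with differentiation. It was at -3.49 and -4.46 in undifferentiated, -1.96 and -1.50 in differentiated and -0.76 and -0.50 in cabozantinib-treated osteoblasts, so that the conditions did not overlap and each was above the one before. The log2 fold change with differentiation was 2.24 ± 0.54 (SE), or 4.73-fold (limma adjusted p of 0.0280), and 10 of 15 alternative fits called it. The call was lost with normexp, where the log2 fold change was 1.24 (limma adjusted p of 0.551), with no filter on dim probes (0.0743), and without undifferentiated replicate 2, differentiated replicate 1 or differentiated replicate 2, with limma adjusted p of 0.0613, 0.0519 and 0.339. With cabozantinib it was 2.14-fold above differentiated osteoblasts.

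Car7, a cytosolic enzyme, had the highest level in differentiated osteoblasts, as Car9 did. It was at 0.36 and -0.24 in undifferentiated, 1.45 and 1.32 in differentiated and 0.15 and 0.38 in treated osteoblasts. Both differentiated arrays were above the other 4. Its log2 fold change with differentiation was 1.33 ± 0.50 (SE; limma adjusted p of 0.148), its difference with cabozantinib was -1.12, and 4.31% of the 3368 genes of like mean level had a lower difference. Car1, Car11 and Car15 had log2 fold changes between 0.005 and 0.25 with differentiation, with limma adjusted p from 0.921 to 0.999. With cabozantinib their differences were -1.35, -1.06 and -0.43, and the arrays of Car15 overlapped. The mitochondrial Car5a was not well above background on any array.

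Over 6 arrays, the genes most like Car9 were Dagla (r of 0.9974), Rab11fip4 (0.9968), Gdf15 (0.9954), Rnf39 (0.9924) and Scml4 (0.9905). Gdf15, a secreted factor of the stress response, was at 1.66 and 0.57 in undifferentiated, 2.49 and 2.68 in differentiated and 1.03 and 1.54 in treated osteoblasts. The 5 genes were picked by this correlation, so an order of arrays and signs of differences like those of Car9 follow from the choice. The log2 fold changes of the 5 genes with differentiation were between 0.97 and 2.00, and their differences with cabozantinib between -2.04 and -0.85.

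A list of 22 genes of the hypoxia response was read beside Car9 and Car12, of which 20 were tested. With differentiation 2 rose and none fell, beside 5.27% and 4.45% of all genes, and the median was -0.26, against 0.11 for all genes. The 2 were Ankrd37, a target of the hypoxia-inducible factor, which was higher by 2.498 (limma adjusted p of 0.0126), and Pfkfb4, a regulator of glycolysis, which was higher by 2.01 (limma adjusted p of 0.0455). Ankrd37 was highest in differentiated osteoblasts, as Car9 was, at 0.26 and -0.10 in undifferentiated, 2.26 and 2.89 in differentiated and 0.37 and 0.47 in treated osteoblasts, with a difference of -2.15 with cabozantinib. Pfkfb4 was at 2.24 and 2.71 with the drug and at 2.22 and 2.67 without it, with overlapping arrays.

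With cabozantinib against differentiation, 1 of the 20 hypoxia genes was called, and it fell: Egln3, the oxygen-dependent prolyl hydroxylase, was at 0.16 and -0.24 in differentiated and -2.35 and -2.25 in treated osteoblasts (limma adjusted p of 0.0486). This call was lost with the authors' values and after quantile normalization. The median of the list was -0.59, against -0.29 for all genes, and 13 of the 20 were lower on both treated arrays than on both differentiated arrays, beside 44.2% of all genes. None of the 20 was higher on both, beside 13.4% of all genes. Most of the 20 had a mean level of 0 or above. In that class 24.1% of genes were lower on both, 13.5% were higher on both, and the median was -0.10. Slc2a1 and Hk2, a glucose transporter and the hexokinase of glycolysis, were chosen after their values were seen and had differences of -1.73 and -1.62, which were not called (limma adjusted p of 0.0825 and 0.0981). Ldha, Eno1 and Aldoa, chosen in the same way as enzymes of glycolysis, had differences between -0.18 and -0.16.

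**Figure D4:**
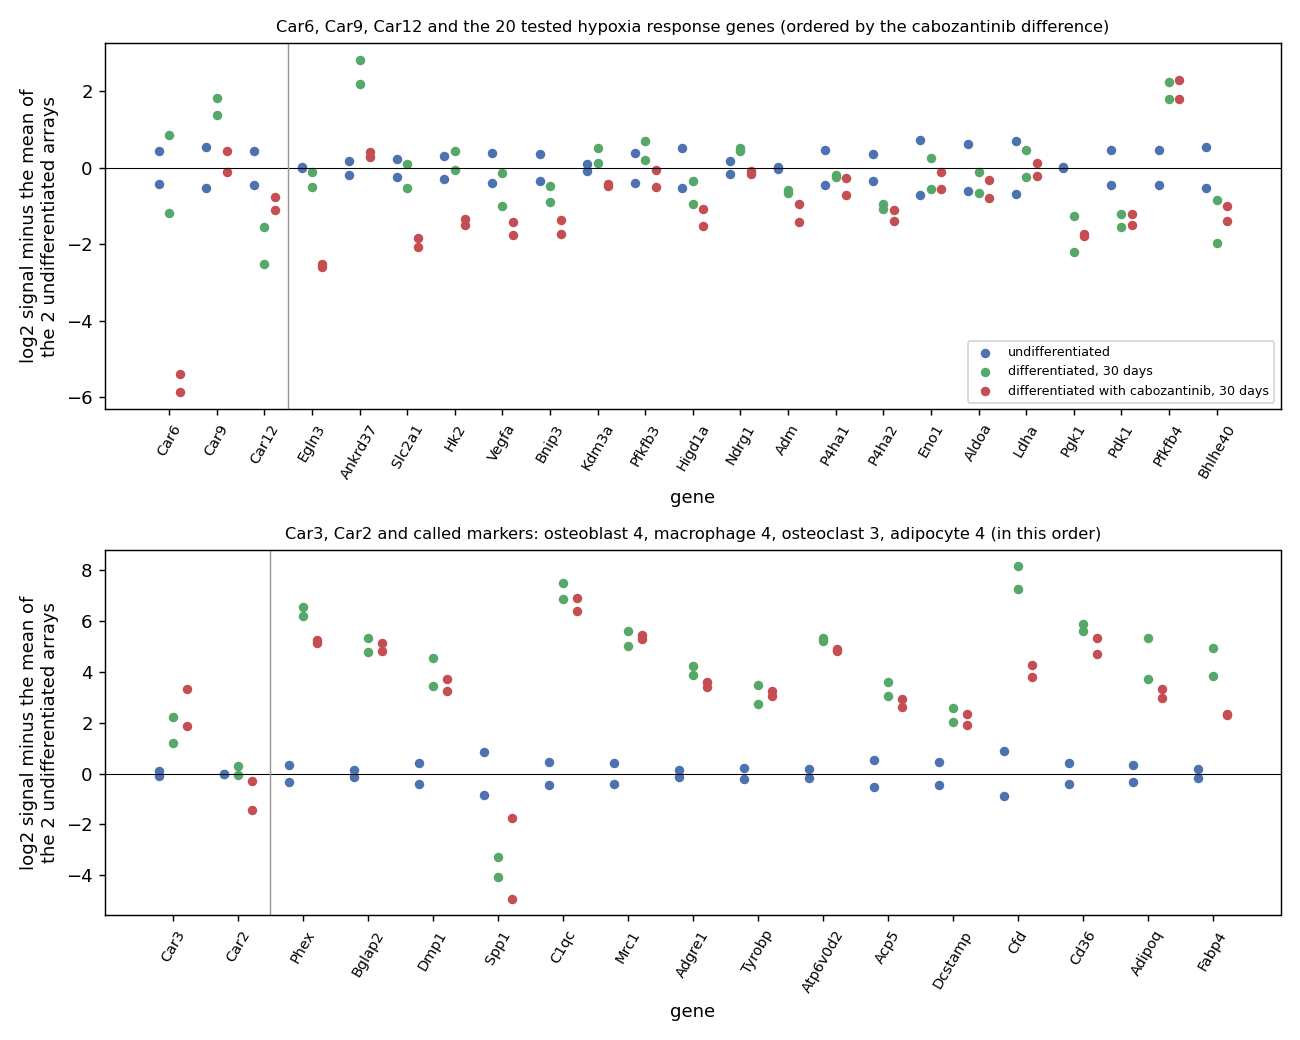
Log2 signal minus the mean of the 2 undifferentiated arrays (vertical axis), 1 point per array, for Car6, Car9, Car12 and the 20 tested genes of the hypoxia list (upper panel), and for Car3, Car2 and up to 4 called markers each of osteoblasts, macrophages, osteoclasts and adipocytes (lower panel). Ankrd37 shares with Car9 the high points of differentiated osteoblasts alone, and the called macrophage and adipocyte markers shown are high in both groups from differentiation medium, as Car3 is.

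Bicarbonate and protons made by carbonic anhydrases leave or enter the cell through transporters, and 18 of 22 genes of such transporters were tested. With differentiation 2 rose and 1 fell, beside 5.27% and 4.45% of all genes, with a median of 0.14, against 0.11 for all genes. Hvcn1, the voltage-gated proton channel of immune cells, rose from 2.44 and 0.76 to 4.62 and 5.81 (log2 fold change of 3.62 ± 0.68, SE; limma adjusted p of 0.00894). Slc4a10, a sodium-dependent bicarbonate transporter, rose from -3.59 and -2.58 to 0.55 and -0.21 (3.26 ± 0.56; limma adjusted p of 0.00576). Slc16a3, which exports lactate with a proton, fell from 7.18 and 5.71 to 3.64 and 4.44 (-2.41 ± 0.62; limma adjusted p of 0.0384), and was at 2.44 and 2.98 with cabozantinib. With cabozantinib against differentiation none of the 18 was called by limma (3 at an unadjusted p under 0.05), beside 0.121% of all genes called higher and 2.55% lower, with a median of -0.43, against -0.29 for all genes.

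Of 23 subunits of the V-ATPase, the pump that moves protons out of osteoclasts and into lysosomes, 22 were tested. With differentiation 2 rose and 3 fell, beside 5.27% and 4.45% of all genes, with a median of 0.42, against 0.11 for all genes. Atp6v0d2, the subunit of osteoclasts and macrophages, rose from -2.17 and -1.84 to 3.33 and 3.22, a log2 fold change of 5.28 ± 0.49 (SE; limma adjusted p of 0.000357), and was at 2.80 and 2.91 with cabozantinib. Atp6v1c2 was not well above background on either undifferentiated array and was at least 3.47-fold higher in differentiated osteoblasts, and Atp6ap1 had a log2 fold change of -4.48 and Atp6v0d1 of -3.29, with limma adjusted p between 0.00570 and 0.0138, and the fifth, Atp6v1e1, of -1.94 (limma adjusted p of 0.0327). With cabozantinib against differentiation none of the 22 was called by limma (3 at an unadjusted p under 0.05), beside 0.121% higher and 2.55% lower of all genes, with a median of -0.06, against -0.29.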

How the data were processed

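Arrays of 6 samples were analysed, 2 per condition, grouped by the labels. The deposited scanner output held intensities that, per the file headers, Feature Extraction 11.0.1.1 background-subtracted and detrended, on a linear scale and not scaled between arrays. The authors also deposited log2 values of 30439 probes with medians of 7.504 to 7.506 on the 6 arrays. How they were made is not given in the sources used here, and they served as an alternative.

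Control and outlier spots were removed, signals taken to the log2 scale and averaged per probe, and each array was set relative to its own 75th percentile, which was 625 to 1773 units. Probes were named through RefSeq accessions (69.1% of probes). The 27192 probes that passed the background call on 2 arrays or more were fitted with limma 3.58.1 in R 4.3.3, with condition and replicate number as terms, since the statistics section of the study names a paired test. This left 2 residual degrees of freedom, with 7.68 from pooling. P-values were adjusted by Benjamini-Hochberg over probes, and a gene was read at its brightest probe. Counts over all genes include transcripts that RefSeq did not name, each under the array's own identifier. A fold described as at least a value sets the bright group against the lowest signal well above background on each array of the dim group, or the dim probe where that was higher.

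The genes named were all carbonic anhydrases, up to 4 called genes of each list with the greatest change, and the 5 genes most correlated with Car6, Car3 and Car9. Other genes named (the next in rank to Car6, single markers, a further V-ATPase subunit and genes of glycolysis) were chosen after their values were seen. The members and lists were chosen with earlier results of these data known. The replicate block rests on the paired test that the study names (the closing section gives a check of the numbers). The number of arrays limits the precision. Alternatives were other normalizations and background corrections, filters, the block, the arrays fitted, the probe rule, the methods' t-test, and each array left out. The results section of the study names an earlier day of differentiation than its array methods and the labels, which were followed.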

Additional observations from a re-analysis of the deposited data

How the results depend on the processing

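The loss of Car6 with cabozantinib, between -6.43 and -4.49 over all alternatives run, kept its direction and stayed within the spread between replicates of the reported value. Among differences of single carbonic anhydrases, 15 of 416 had the other sign under an alternative. With normexp, differentiation differences turned to -0.18 for Car11, -0.16 for Car2 and -0.053 for Car8. With 1 array left out, they ranged from -0.21 to 0.71 for Car1, -0.61 to 0.62 for Car11, -0.57 to 0.14 for Car13, -1.05 to 1.28 for Car15, -0.25 to 0.50 for Car2 and -1.10 to 0.77 for Car6, and cabozantinib differences ranged from -0.11 to 0.53 for Car13, -1.30 to 0.44 for Car15, -0.13 to 1.92 for Car3 and -0.088 to 0.42 for Car4. The cause was not tested.

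Differences between replicates 1 and 2 correlated at -0.51 between undifferentiated and differentiated, -0.53 between undifferentiated and treated and 0.26 between differentiated and treated osteoblasts, so the numbers are not shown to pair the arrays, and p-values with the block rest on the study's paired test. Members called with differentiation were 0 of 8 as reported. Car12 was called without the replicate block (limma adjusted p of 0.0308), with the mean of the probes of a gene (0.0472), with probes well above background on all 6 arrays (0.0328) and without undifferentiated replicate 2 (0.0449), which gave 1 called member each, and Car9 without undifferentiated replicate 1 (0.0239). The replicate block with the undifferentiated numbers exchanged, added after seeing the data, gave 2 called members, Car9 and Car12. Leaving out 1 array gave 0 to 1.

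Genes called with differentiation numbered 2241. They were 3091 without the replicate block, 6024 with the exchanged block, 1415 with no filter on dim probes, 674 with normexp on median signals (added after seeing the data), 0 by the methods' t-test, paired or unpaired, after Benjamini-Hochberg (1290 and 3384 at an unadjusted p under 0.05), and 1350 to 4397 with 1 array left out. Genes called with cabozantinib against differentiation numbered 615. By limma they were 0 after quantile normalization, with the authors' values, with normexp and with no filter (4023, 4028, 513 and 5621 at an unadjusted p under 0.05), 2 with probes above background on all arrays, 1106 with the mean of the probes, 2947 without the replicate block, 5543 with the 4 arrays compared alone, 7051 with the exchanged block, and 41 to 5543 with 1 array left out. The calls of Egln3 and Aqp5 rest on this comparison.

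Of the hypoxia list, 2 genes were called with differentiation. This became 1 with no filter, quantile normalization, the authors' values or the 4 arrays compared, 0 with normexp, 6 with the exchanged block and 0 to 4 with 1 array left out. With cabozantinib the 1 call became 0 with no filter, normexp, quantile normalization, the authors' values or probes above background on all arrays, 2 with the mean of the probes, 4 without the replicate block or with the 4 arrays compared, 6 with the exchanged block, and 0 to 4 with 1 array left out. The gland list had 3 calls with differentiation, 0 with probes above background on all arrays. Its 1 call with cabozantinib became 0 with no filter, normexp, quantile normalization, the authors' values or probes above background on all arrays, 3 without the replicate block, 6 with the exchanged block or the 4 arrays compared, and 0 to 6 with 1 array left out. The transporter list had 3 calls with differentiation, 1 with normexp and 1 to 4 with 1 array left out, and 0 with cabozantinib, 5 with the 4 arrays compared, 6 with the exchanged block and 0 to 5 with 1 array left out. The V-ATPase list had 5 calls with differentiation, 3 with normexp, 12 with the exchanged block and 1 to 9 with 1 array left out, and 0 with cabozantinib, 1 with the 4 arrays compared, 4 with the exchanged block and 0 to 3 with 1 array left out. The cause was not tested. Where an array was left out, the lone array of its condition was assumed to vary like the other groups. The slide as a term could not be run for cabozantinib, and does not touch the comparison within 1 slide. Signal over background limits Car2, Car5b and Car8 most.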
